A study of Arabidopsis thaliana with 2 samples.

Results

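Deep gene peaks are the TGA1-GFP peaks narrower than 1000 bp whose midpoint lies inside a protein-coding gene and more than 200 bp from both ends of that gene. Of 8002 peaks in the list, 7271 were under 1000 bp, and 967 of these met the rule. That is 13.3% of the narrower peaks (95% Wilson interval 12.5 to 14.1%) and 12.1% of all peaks. The chosen peaks lay in 883 host genes, forming 972 pairs of peak and host because 5 peaks lay deep inside 2 overlapping genes at once. The choice used position and width only, and no measure of binding strength.

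The peaks come from chromatin immunoprecipitation with sequencing (ChIP-seq), which recovers with an antibody the DNA that a protein contacts, on roots of Arabidopsis thaliana plants that carry TGA1 fused to green fluorescent protein. By their titles, 1 library was made with the GFP antibody and 1 with IgG, which has no stated target, and both come from TGA1-GFP plants. The titles do not give the role of the IgG library. The labels give no promoter, parent genotype, plant age or nitrogen supply for these plants, and name no library from plants without the fusion. One list of peaks stands for the whole series, so there was no replicate, no test was made, and every difference given here describes this list.

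TGA1 belongs to the TGA group of bZIP transcription factors, which bind DNA at TGACG elements and are known from defence and, in roots, from nitrate responses. Plant transcription factors are mostly studied at promoters, in front of a gene. The interior of a gene holds exons and introns, and in some genes also an internal start site of a shorter transcript. The gene table used here gives both ends of each gene but neither strand nor exons, so a start cannot be told from a far end, nor an exon from an intron.

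Deep peaks were sparse for the length of sequence they had to fall in. The interiors of protein-coding genes, at more than 200 bp from both ends, added up to 54.1 Mb and held 17.9 deep peaks per Mb. The stretches within 200 bp of a gene end, 10.3 Mb in all, held 92.3 peaks under 1000 bp per Mb. Sequence outside protein-coding genes but within 1000 bp of one, 24.3 Mb, held 155 of them per Mb. All 5 chromosomes gave similar densities, from 16.4 deep peaks per Mb of interior on chromosome 5 (207 peaks) to 21.0 on chromosome 2 (171 peaks). Among the 731 peaks of 1000 bp or wider, 73 had a midpoint equally deep in a gene, 9.99% (Wilson interval 8.02 to 12.4%).

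Density did not simply fall off towards the middle of genes. It was 31.9 peaks per Mb (27.4 to 37.1) at 200 to 300 bp from the nearer end and 13.0 per Mb (10.2 to 16.7) at 400 to 500 bp. Further in it was higher again, at 19.1 per Mb (16.4 to 22.3) at 750 to 1000 bp and 19.3 per Mb (16.9 to 22.2) at 1000 to 1500 bp. Beyond that the values were 16.0 per Mb at 1500 to 2000 bp, 7.62 per Mb (5.23 to 11.1) at 2000 to 3000 bp and 5.04 per Mb (2.55 to 9.94) at 3000 to 6000 bp. The intervals of the bins at 400 to 500 bp and at 1000 to 1500 bp did not overlap over all genes. Within genes over 3000 to 4000 bp the same bins had 17.3 per Mb (10.1 to 29.6) and 22.1 per Mb (17.8 to 27.3). In genes over 4000 bp they had 9.24 per Mb (4.23 to 20.2) and 14.8 per Mb (11.1 to 19.6). Inside either length class these intervals overlapped.

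**Figure D1:**
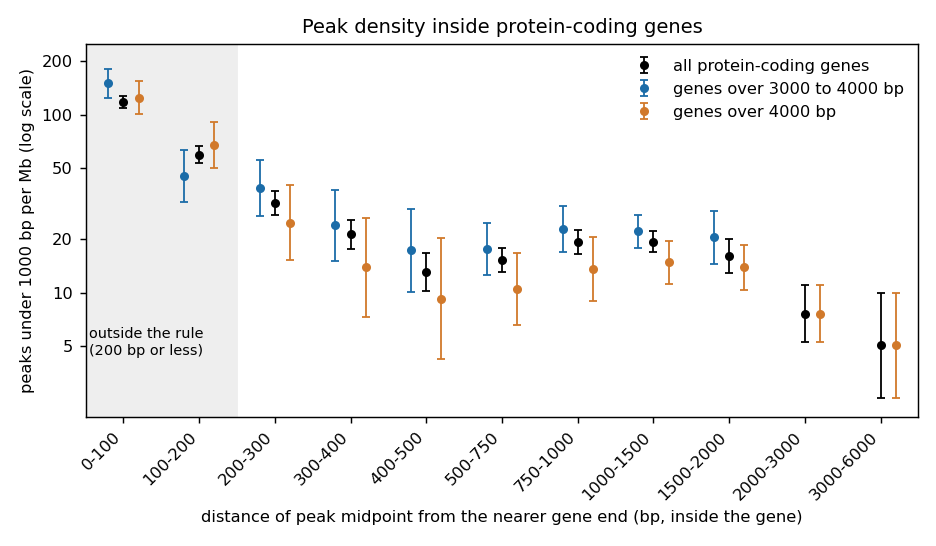
Peaks under 1000 bp per Mb of sequence (log scale) against distance of the midpoint from the nearer gene end in bp, for all protein-coding genes and for long genes; bars are 95% Wilson intervals over bases, and the shaded bins are outside the rule. Over all genes the density is 31.9 per Mb at 200 to 300 bp, 13.0 at 400 to 500 bp, 19.3 at 1000 to 1500 bp and 5.04 at 3000 to 6000 bp.

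The median midpoint lay 738 bp from the nearer gene end (quartiles 370 and 1135 bp, range 200.5 to 3924.5 bp). Of the 972 pairs, 805 were more than 300 bp from both ends, 636 more than 500 bp, 314 more than 1000 bp and 35 more than 2000 bp. As a share of gene length, the distance to the nearer end had a median of 27.7% (quartiles 16.3 and 38.8%). The outer 10% of the gene at each end, where the 200 bp limit leaves little room, held 9.67% of the pairs (7.97 to 11.7%), against 6.55% of the interior sequence of the same hosts. The bins from 10 to 20% and from 20 to 30% held 23.3 and 24.1% of the pairs, against 21.6 and 23.7% of that sequence. The innermost bins, from 30 to 40% and from 40 to 50%, held 20.2% (17.8 to 22.8%) and 22.8% (20.3 to 25.6%) of the pairs, against 23.9 and 24.2% of the sequence. The intervals of the outermost bin and of the bin from 30 to 40% excluded the share of sequence, and those of the other 3 bins contained it. Of the pairs, 480 lay nearer the end with the lower coordinate and 492 nearer the other.

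Of the 967 peaks, 892 lay with both edges inside a host, 92.2% (90.4 to 93.8%). The rest reached over a gene end. At the distance limit, peaks in ATAF1 (AT1G01720) and bZIP2 (AT2G18160), both transcription factor genes, were just inside at 200.5 bp from the nearer end. Peaks in AT4G28940 and ERD10 (AT1G20450) were just outside at 200 bp. At the width limit, AT3G16210 and PMR6 (AT3G54920) had member peaks of 991 and 996 bp, and peaks of 1006 bp in CIPK17 (AT1G48260) and 1008 bp in AT2G03360 fell outside. Both limits cut through a continuous range: 98 narrower peaks lay over 200 to 250 bp from an end and 131 lay at over 150 to 200 bp.

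Host genes were longer than other genes. The rule favours this, since a longer gene has more interior sequence and a gene needs more than 400 bp to qualify. The 883 hosts were 3.22% of 27444 protein-coding genes and 3.31% of the 26650 genes over 400 bp. Their median length was 2853 bp (quartiles 2036 and 3670 bp), against 2097 bp (1376 and 3038 bp) for the other genes over 400 bp. The share of hosts was 0.502% among genes over 400 to 1000 bp, 1.72% to 1500 bp, 2.65% to 2000 bp, 3.81% to 3000 bp, 5.93% (5.22 to 6.73%) to 4000 bp and 5.87% to 6000 bp. Among the 880 genes over 6000 bp it was 3.18% (2.21 to 4.56%). Per Mb of interior the density lay between 15.6 and 22.1 pairs in every class up to 6000 bp, and was 5.51 in genes over 6000 bp.

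**Figure D2:**
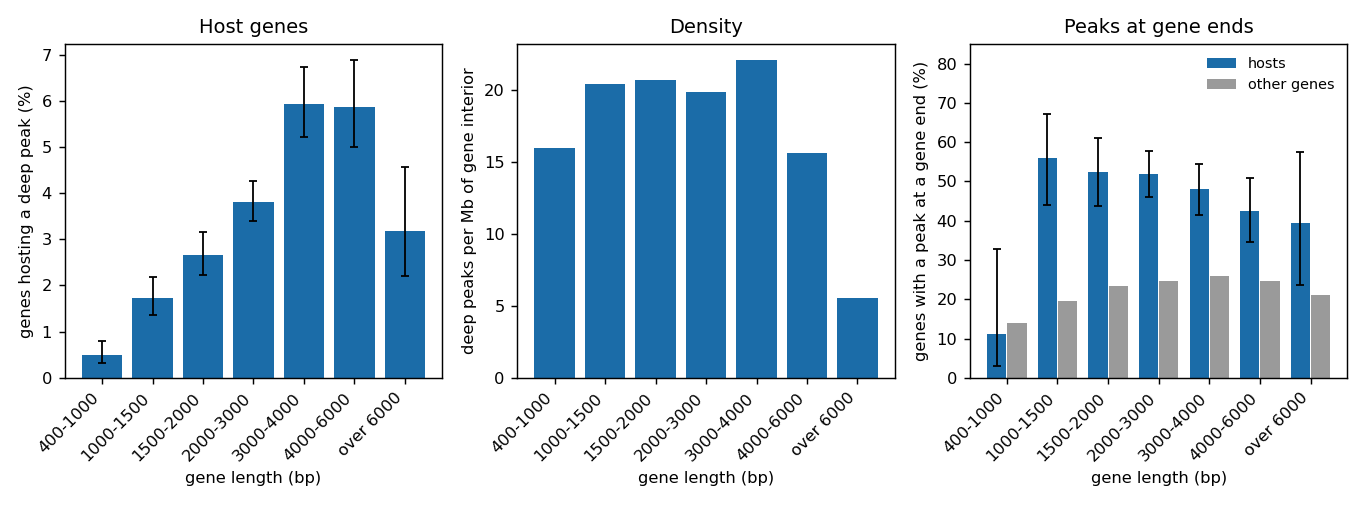
Left, share of protein-coding genes that host a deep peak by gene length in bp; middle, pairs of deep peak and host per Mb of gene interior; right, share of hosts (blue) and other genes (grey) with a peak at a gene end. Bars on the left and on hosts are 95% Wilson intervals. The share of hosts is 5.93% at 3000 to 4000 bp and 3.18% above 6000 bp, where the density is 5.51 per Mb.

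The 5 longest hosts were MAPKKK7 (AT3G13530, 11313 bp), AT2G34110 (10767 bp), AT3G12020 (9167 bp), TPS1 (AT1G78580, 8573 bp) and AT5G61910 (8552 bp). MAPKKK7 encodes a MAP kinase kinase kinase, and its 372 bp peak lay 3629 bp from the nearer end. TPS1 encodes trehalose-6-phosphate synthase, which makes a sugar signal, and its 503 bp peak lay 789.5 bp from the nearer end. The peak in AT5G61910, 479 bp wide, had the greatest depth of all, 3924.5 bp from the nearer end. The 5 shortest hosts were AT3G04270 (445 bp), LCR8 (AT3G61172, 470 bp), AT1G53633 (544 bp), AT1G11362 (722 bp) and AT1G68937 (754 bp). LCR8 encodes a small cysteine-rich protein. The peaks in LCR8 (472 bp) and AT1G53633 (734 bp) were wider than the genes themselves, so in such short genes a deep midpoint does not place the whole peak inside.

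Hosts also carried peaks at their ends more often than other genes did. An end peak is here a peak of any width whose midpoint lies up to 1000 bp outside a gene or no more than 200 bp inside it from an end. Such a peak was found at 429 of 883 hosts, 48.6% (45.3 to 51.9%), against 5740 of 25767 other genes over 400 bp, 22.3% (21.8 to 22.8%), and 22.8% of all protein-coding genes. Weighting the other genes to the length classes of the hosts gave 24.1%. From the class of 1000 to 1500 bp upwards, hosts had the higher share in each of the 6 classes, from 55.9% of hosts against 19.6% of other genes at 1000 to 1500 bp to 39.3% (23.6 to 57.6%) against 21.1% above 6000 bp. In the class of 400 to 1000 bp, 2 of 18 hosts had one, 11.1% (3.1 to 32.8%), against 14.1% of other genes. Neighbouring genes can share an end peak, and the count does not separate them.

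Transcript numbers, in contrast, followed length. Of the hosts, 51.4% had 2 or more annotated RefSeq transcripts, against 39.8% of the other genes over 400 bp. Weighted to the lengths of the hosts, the other genes came to 49.5%. Of the deep midpoints, 32, 3.31% (2.35 to 4.63%), also lay in an annotated gene that is not protein-coding, in 31 cases a long non-coding RNA gene. Annotated genes of all types other than protein-coding, pseudogenes included, covered 1.72% of the interior sequence.

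Deep peaks were slightly narrower than the other peaks under 1000 bp and came later in the list. Their median width was 399 bp (quartiles 317 and 530 bp), against 415 bp (327 and 559 bp) for the other 6304. Their median place was 4806, against 4280.5. The file does not say what its order stands for. With the list cut into 4 equal parts, deep peaks were 9.8% (8.37 to 11.4%) of the narrower peaks in part 1, 13.4 and 13.5% in parts 2 and 3, and 15.6% (14.0 to 17.2%) in part 4. Within a part the widths were close, with medians of 611 bp for deep peaks against 597 bp for others in part 1 and 308 bp for deep peaks against 301 bp for others in part 4. Median host length was between 2838 and 2996 bp in the 4 parts. The nearest other peak lay a median of 2029 bp away (quartiles 1109 and 5536 bp), against 2244 bp (1103 and 6252 bp) for the other narrower peaks.

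**Figure D3:**
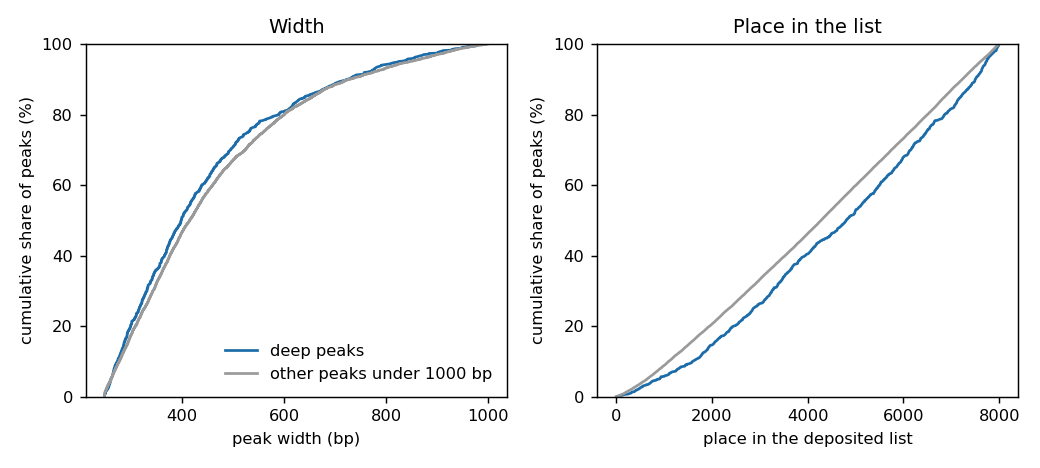
Cumulative share of peaks in percent against width in bp (left) and place in the deposited list (right), for deep peaks (blue) and the other peaks under 1000 bp (grey). The median width is 399 bp for deep peaks and 415 bp for the others, and the median place is 4806 and 4280.5.

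The earliest deep peak, at place 22, was 612 bp wide and lay in BTI1 (AT4G23630), a reticulon-like protein of the endoplasmic reticulum, at chromosome 4, 12317382 to 12317993 (TAIR10). Its midpoint was 651 bp from the nearer end of a 3039 bp gene, and BTI1 had no end peak. The next, 740 bp at place 55, lay 2072 bp inside BLH2 (AT4G36870), a BEL1-like homeodomain transcription factor gene of 5097 bp, again with no end peak (chromosome 4, 17370618 to 17371357). AT1G74840 had a 739 bp peak at place 69 that reached over the gene end. YSL7 (AT1G65730), of the yellow stripe-like family of metal chelate transporters, had a 972 bp peak at place 123, 1243 bp from the nearer end (chromosome 1, 24443146 to 24444117). It was among both the earliest and the widest.

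ALDH7B4 (AT1G54100), an aldehyde dehydrogenase gene, had a 696 bp peak at place 147, and PAP8 (AT2G01890), a purple acid phosphatase gene, a 700 bp peak at place 154. The midpoint of the 791 bp peak in AT1G80610, at place 222, was almost exactly central, 1852.5 bp from one end and 1861.5 bp from the other. PCL1 (AT3G46640), known as LUX ARRHYTHMO and part of the evening complex of the circadian clock, had a 627 bp peak at place 266, 1645.5 bp from the nearer end. AT5G63130 had a peak of 959 bp at place 283. HVA22D (AT4G24960) had one of 695 bp at place 311. With AT1G74840, these were the 3 of the first 10 peaks that reached over a gene end. An end peak was also present at 7 of the 10 hosts.

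Among the widest deep peaks, PMR6 (AT3G54920), a pectate lyase-like gene of powdery mildew resistance, had 996 bp at place 1788, 963 bp from the nearer end. TDT (AT5G47560), the tonoplast dicarboxylate transporter that moves malate into the vacuole, had 982 bp, 1473 bp from the nearer end of a 3735 bp gene. RDUF1 (AT3G46620), a RING-type ubiquitin ligase gene, had 979 bp, BT2 (AT3G48360) 978 bp and TET2 (AT2G19580), a tetraspanin gene, 977 bp. AT3G16210 (991 bp), AT5G63130 (959 bp), AT1G61360 (957 bp) and AT5G08240 (950 bp) completed the widest 10 with YSL7. Those in AT3G16210, RDUF1 and AT5G63130 reached over a gene end, and the other 7 lay whole inside the gene.

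Most hosts had a single deep peak. In 809 of 883 there was 1, in 61 there were 2, in 11 there were 3 and in 2 there were 4. The midpoints of neighbouring deep peaks within one host lay a median of 1001 bp apart (quartiles 757 and 1335 bp, range 373 to 3298 bp, 89 gaps). The 13 hosts with 3 or 4 deep peaks ranged from 2737 to 7779 bp, and 8 of them had no end peak.

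RBOH F (AT1G64060), an NADPH oxidase gene whose enzyme makes superoxide outside the cell, had 4 deep peaks in 7211 bp and no end peak. Their widths were 279, 267, 455 and 296 bp, with midpoints 1655.5, 2028.5, 2510.5 and 3511 bp from the lower-coordinate end. The widest stood at place 3091 and the others late in the list, at places 7953, 7368 and 7161. HEXO3 (AT1G65590), a beta-hexosaminidase gene that trims sugar chains of glycoproteins, had 4 deep peaks in 5657 bp and no end peak. They measured 468, 619, 872 and 319 bp and stood at places 2007, 7954, 1777 and 5948. The first, with its midpoint 222 bp from the lower-coordinate end, reached over that gene end. The widest, at chromosome 1, 24387071 to 24387942, lay 1954 bp from the nearer end.

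BT2 (AT3G48360), a BTB and TAZ domain scaffold protein known from nitrogen use, had 3 deep peaks in 2972 bp and no end peak. They were 268 bp (place 7067), 978 bp (place 3535; chromosome 3, 17908307 to 17909284) and 590 bp (place 5319), with midpoints 292, 1028 and 2754 bp from the lower-coordinate end. The last reached over the other gene end. NRT1.7 (AT1G69870), a nitrate transporter that loads nitrate into the phloem of old leaves, had 3 in 4447 bp and no end peak, of 480 bp (place 2116), 291 bp (place 6966) and 660 bp (place 628; chromosome 1, 26317745 to 26318404). The earliest of these lay almost at the centre, 2287 and 2159 bp from the ends.

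TGA9 (AT1G08320), a paralog of TGA1 known from anther development, had 3 deep peaks of 591, 640 and 618 bp in 6735 bp, at places 3174, 3485 and 5274, and 1 end peak. Their midpoints were 943.5, 3940 and 4761 bp from the lower-coordinate end, so 2 of the 3 lay past the middle. BLH4 (AT2G23760), a BEL1-like homeodomain gene, had 368, 619 and 300 bp peaks in 5621 bp. The widest, at place 1440, lay 1927.5 bp from the nearer end and the others 395 and 353 bp from opposite ends.

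IAA16 (AT3G04730), an Aux/IAA repressor gene of auxin signalling, had 3 deep peaks of 425, 315 and 280 bp, all late in the list (places 7773, 7291 and 7998), and 2 end peaks. BCA4 (AT1G70410), a beta carbonic anhydrase gene, had 261, 488 and 438 bp peaks in 4614 bp at places 7498, 7501 and 3510. PEL3 (AT5G23940), an acyltransferase gene needed for cutin, had 477, 601 and 292 bp peaks at places 3423, 3604 and 5655. The other hosts with 3 were AT2G27080, AT4G21903, AT4G29930 and AT5G13250, with widths from 274 to 932 bp. The earliest in this group of hosts was a 590 bp peak in AT4G21903, at place 407.

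**Figure D4:**
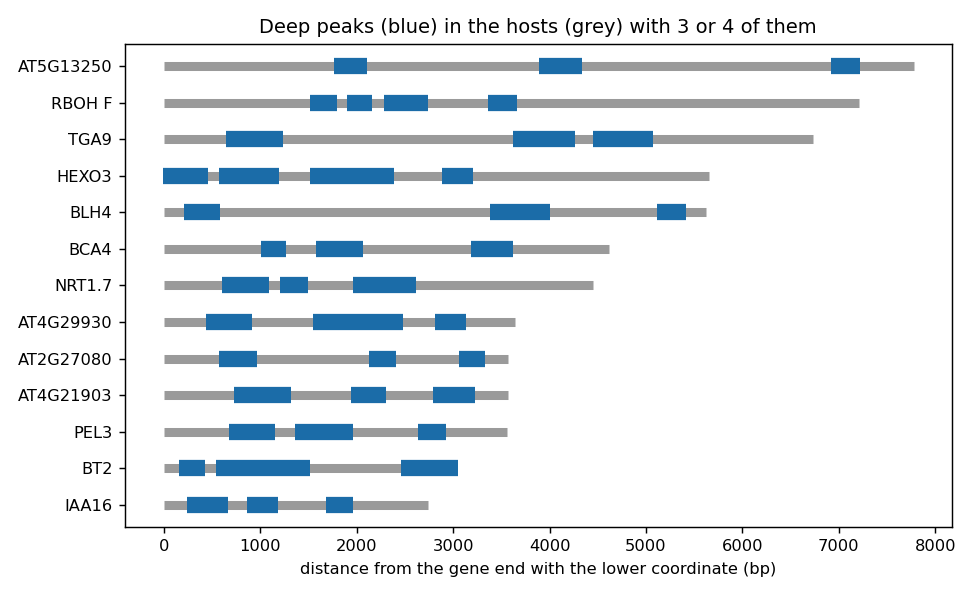
Position and width of deep peaks (blue) along the 13 hosts (grey) with 3 or 4 of them, in bp from the gene end with the lower coordinate. RBOH F and HEXO3 have 4 each, and BT2, with 3, is 2972 bp long.

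Host classes were read from gene symbols and the full names in the gene table, so they cover the 10374 genes with a symbol of their own, of which 460, 4.43%, were hosts. Of the 17070 genes with no such symbol, 423 were hosts, 2.48%. Named genes were longer (median 2487 bp) than unnamed ones (1835 bp). Each class of more than 1 gene is therefore given beside the share expected from named genes of the same length classes. No enrichment test was run, genes of one family are not independent, and words in names can sort a gene wrongly.

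Of the 5 classes of more than 200 genes, transporters and channels had the highest share. Of 467 such genes, 45 were hosts, 9.64% (7.28 to 12.7%), against 5.07% of named genes of the same lengths. Transcription factors and DNA-binding regulators had 51 of 676, 7.54% (5.78 to 9.78%) against 3.95%. Oxidases, peroxidases and dehydrogenases had 25 of 350, 7.14% (4.88 to 10.3%) against 4.8%. Cytochrome P450 genes had 14 of 232, 6.03% (3.63 to 9.87%) against 4.13%, and protein kinases 29 of 528, 5.49% against 5.37%. The intervals of the first 3 classes excluded the matched share and those of P450 genes and kinases contained it. In the same order, end peaks were found at 32.3, 41.1, 28.9, 21.6 and 36.4% of these 5 classes, against 22.8% of all protein-coding genes. That last share is not matched for length or for having a symbol. Among classes of 100 to 200 genes, calcium signalling proteins had 10 of 112, 8.93% (4.92 to 15.7%) against 4.83%, with the matched share just below the interval. Glycosyltransferases and glycosyl hydrolases had 8 of 102, 7.84% against 5.61%, lipid enzymes 12 of 199, 6.03% against 4.81%, and receptor-like kinases 7 of 120, 5.83% against 5.73%. Ubiquitin ligases and RING proteins had 10 of 178, 5.62% against 4.28%, proteases 8 of 179, 4.47% against 5.45%, and ABC transporters 5 of 131, 3.82% against 5.24%. Of the small classes, F-box proteins had 1 host of 26, 3.85% against 3.94%, proteins of unknown function 2 of 24, 8.33% against 4.14%, and the disease resistance receptors with a nucleotide-binding domain 0 of 13 (up to 22.8%) against 5.34%. The single transposon-related gene was not a host.

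The widest deep peaks within the classes show how varied the hosts are. Among transcription factors, NAC074 (AT4G28530) had one of 948 bp, 1698 bp from the nearer end, and HB17 (AT2G01430), a homeodomain gene, one of 810 bp, 1295 bp from the nearer end. Among kinases, SNRK2.9 (AT2G23030), of the SNF1-related family, had 874 bp at place 508 with the midpoint 1478 bp from the nearer end, WNK4 (AT5G58350) had 863 bp and LYK4 (AT2G23770), a LysM receptor-like kinase of chitin perception, 821 bp. The receptor-like kinases LECRKA4.3 (AT5G01560) and RLK (AT5G67280) had 655 and 505 bp. The first of these was 283.5 bp from one end, and the second 1218.5 bp from the nearer one.

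Among enzymes, CYP72C1 (AT1G17060), a P450 of brassinosteroid turnover, had 813 bp, CYP86A8 (AT2G45970) 593 bp and DWF4 (AT3G50660), which makes brassinosteroids, 535 bp. The glycosyl hydrolase genes GH9C2 (AT1G64390), GH9B18 (AT4G39010) and BGLU45 (AT1G61810) had 841, 789 and 779 bp, each more than 1000 bp from both ends. FMO GS-OX4 (AT1G62570), which oxidises glucosinolates, had 680 bp. FAD3 (AT2G29980), a fatty acid desaturase gene, had 686 bp at 222 bp from one end, ALA1 (AT5G04930), a lipid flippase gene, 778 bp, and GLL22 (AT1G54000) 609 bp. The serine carboxypeptidase-like genes scpl22 (AT2G24000), SCPL11 (AT2G22970) and scpl31 (AT1G11080) had 672, 358 and 332 bp.

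Elsewhere, PUB29 (AT3G18710), a U-box ubiquitin ligase gene, had 774 bp at 207 bp from one end, and AIRP2 (AT5G01520), a RING-type one, 548 bp at place 599. The ABC transporter genes ABCG22 (AT5G06530), ABCG25 (AT1G71960), which exports abscisic acid, and ABCB4 (AT2G47000), which moves auxin, had 868, 376 and 339 bp. CAX1 (AT2G38170), a vacuolar calcium exchanger gene, had 533 bp and CIPK16 (AT2G25090) 511 bp.

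Some classes had almost none. Helicases, chromatin and DNA repair proteins had 1 host of 149, HON4 (AT3G18035), a linker-histone-like gene, which makes 0.671% (0.119 to 3.7%) against 4.67% of named genes of the same lengths. Genes named for the cytoskeleton or cell division had 2 of 182, 1.1% (0.302 to 3.92%) against 4.67%. That count does not take in all of the hosts MPS1 (AT5G57880), APC11 (AT3G05870) and NET4A (AT5G58320), so it depends on the words used. Ribosomal protein genes had 0 of 66 (up to 5.5%) against 2.85%, RNA-binding and RNA-processing genes 0 of 50 (up to 7.13%) against 4.73%, and repeat proteins of the pentatricopeptide and tetratricopeptide kind 0 of 28 (up to 12.1%) against 4.7%. End peaks were found at 19.5% of the helicase and chromatin class, 21.4% of the cytoskeleton class, 13.6% of ribosomal protein genes, 16% of RNA-binding genes and 25% of the repeat proteins, against 22.8% of all protein-coding genes.

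Gene symbols that start with the same letters were grouped into 178 families of 10 or more members, of which 92 had a host and 86 had none. In 11 of them 20% or more of the members were hosts. The UMAMIT symbol, of amino acid exporters, had the most hosts of these, 11 of 44, 25% (14.6 to 39.4%) against 4.8% of named genes of the same lengths. Relatives under other symbols, such as the hosts SIAR1 (AT1G44800) and WAT1 (AT1G75500), are not in this count. The 11 UMAMIT hosts had 12 deep peaks of 307 to 616 bp. The earliest were in UMAMIT36 (AT1G70260), 526 bp at place 747 and 864 bp from the nearer end, and UMAMIT28 (AT1G01070), 577 bp at place 912 and 793.5 bp from the nearer end. UMAMIT17 (AT4G08300) had the widest, 616 bp, 1380 bp from the nearer end, and UMAMIT29 (AT4G01430) had 2. In UMAMIT22 (AT1G43650) the midpoint was central, 1646 and 1690 bp from the ends. No end peak was found at 8 of the 11 hosts. Of all 44 genes with a UMAMIT symbol, 15 had one, 34.1%.

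**Figure D5:**
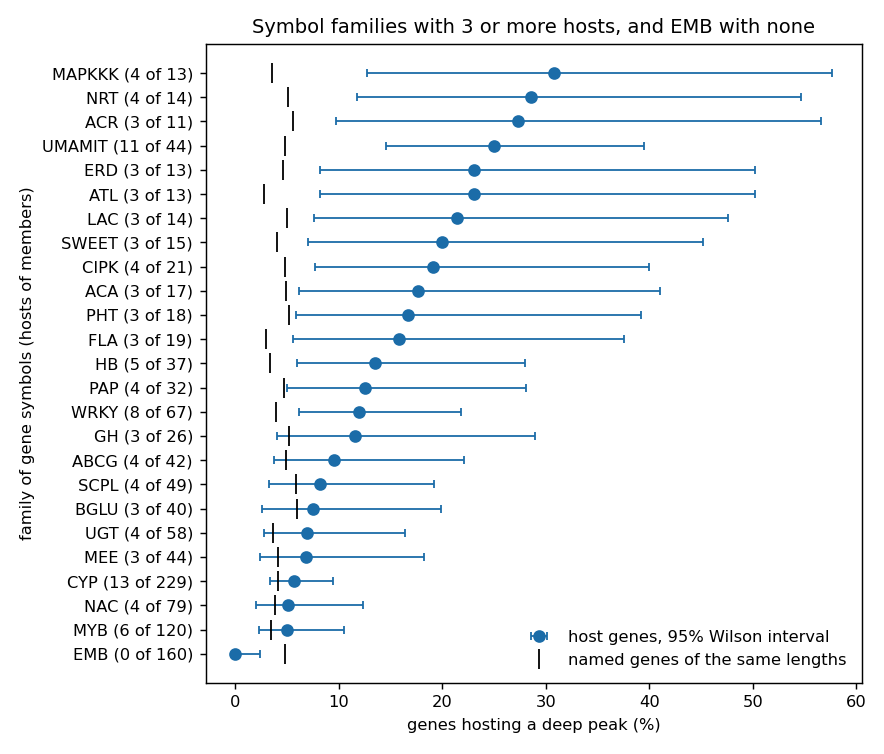
Share of genes hosting a deep peak in percent for families of gene symbols with 3 or more hosts, and for EMB with none; points are shares with 95% Wilson intervals over genes and ticks the share among named genes of the same lengths. UMAMIT has 11 hosts of 44 members and EMB none of 160.

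At the other end, the EMB group, genes named for embryo lethality when lost, had 0 hosts of 160 (up to 2.34%) against 4.78% of named genes of the same lengths. The EMB group was also poor in end peaks, found at 13 genes, 8.1%, against 22.8% of all protein-coding genes. CPK genes, calcium-dependent protein kinases, had 0 hosts of 29 (up to 11.7%) against 5.86%, but 10 of them, 34.5%, had an end peak. Genes with CLE and RALFL symbols, which encode small peptides and are short, had 0 hosts of 30 and 0 of 32 against 1.32 and 0.754% by length. RALF23 (AT3G16570), whose symbol falls outside the RALFL group, was a host. Its 493 bp peak at place 1475 lay 292.5 bp from the nearer end of a 1965 bp gene.

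The list of nitrate transport and reduction genes had 5 hosts of 18, 27.8% (12.5 to 50.9%) against 5.35% by length. Genes of the NRT symbol had 4 hosts of 14, 28.6% (11.7 to 54.6%) against 5.06%, all 4 of the NRT1 kind. Besides NRT1.7, these were NRT1.1 (AT1G12110), which transports and senses nitrate, with a 377 bp peak at place 7277 lying 1583.5 bp from the nearer end of a 4379 bp gene. NRT1.5 (AT1G32450), which loads nitrate into the root xylem, had an 839 bp peak at place 1912 (chromosome 1, 11717426 to 11718264), 2143.5 bp from the nearer end. NRT1:2 (AT1G69850), a low-affinity nitrate transporter close to NRT1.7 on the chromosome, had a 902 bp peak, 1005 bp from the nearer end. NRT1.1 had 1 end peak and the other 3 hosts had none. The nitrate reductase gene NIA2 (AT1G37130) had a 426 bp peak at place 1247, 1401 bp from the nearer end, besides 2 end peaks.

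Of 27 genes listed as regulators of the nitrogen response, 6 were hosts, 22.2% (10.6 to 40.8%) against 4.17% by length. Apart from BT2 they were LBD37 (AT5G67420) and LBD38 (AT3G49940), repressors of nitrate-responsive genes, with peaks of 579 bp (place 843) and 473 bp (place 4548) and 2 end peaks each, and 3 genes of calcium signalling. CIPK23 (AT1G30270), a kinase known to phosphorylate NRT1.1 and the potassium channel AKT1, had a 380 bp peak at place 2885, 1667 bp from the nearer end. CBL1 (AT4G17615) and CBL9 (AT5G47100), the calcium sensors that recruit it, had peaks of 400 bp (place 2029) and 329 bp (place 3632). Both lay at the centre of their genes, 1582 and 1508 bp from the ends of CBL1 and 1354.5 and 1309.5 bp from those of CBL9.

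Of the 19 genes listed for nitrogen assimilation none was a host (up to 16.8%) against 4.64% by length. End peaks were found at 10 of them, 52.6%, against 22.8% of all protein-coding genes, a share not matched for length or for having a symbol. The lists of nitrate transport and reduction genes and of nitrogen response regulators had end peaks at 33.3 and 48.1% of their genes. AMT2 (AT2G38290), an ammonium transporter gene whose symbol that list did not cover and the only host of 6 AMT genes (16.7% against 4.07%), had an 856 bp peak at place 735, 1350 bp from the nearer end of a 3092 bp gene with no end peak. Among the 38 genes of the iron deficiency list, which also takes in numbered bHLH genes of other roles, none was a host (up to 9.18%) against 4.2%, and 19, 50%, had an end peak. The list of TGA and NPR genes had 2 hosts of 18, 11.1% (3.1 to 32.8%) against 4.51%. These were TGA9 and TGA10 (AT5G06839), whose 293 bp peak at place 7366 lay 1722.5 bp from the nearer end of a 5986 bp gene.

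Of 40 genes with potassium or K+ in their names, a group picked out after the values were seen, 5 were hosts, 12.5% (5.46 to 26.1%) against 6.0% by length, an interval that contains the matched share. Besides CIPK23 these were 4 genes of potassium transport. KT1 (AT2G26650), the inward potassium channel AKT1, had a 623 bp peak at place 7247, 1077.5 bp from the nearer end. HAK5 (AT4G13420), which takes up potassium at low supply, had 349 bp at place 2800, with the midpoint 1412.5 bp from the nearer end. GORK (AT5G37500), an outward channel, had a 411 bp peak at place 7056, 1630.5 bp from the nearer end. KT2 (AT2G40540) had a 398 bp peak 285 bp from one end. The sulfate transporter SULTR1;2 (AT1G78000), the only host of 10 SULTR genes, 10% against 6.63%, had 2 deep peaks, of 469 and 681 bp.

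Of 7 genes named as respiratory burst oxidases, also counted after the values were seen, RBOH F, RBOHD and RHD2 were hosts, 42.9% (15.8 to 74.95%) against 6.46% by length. Relatives without that name in the gene table are not in this count. RBOHD (AT5G47910), the NADPH oxidase of immune bursts, had a 902 bp peak at place 696, 1807 bp from the nearer end of a 5021 bp gene (chromosome 5, 19398398 to 19399299). RHD2 (AT5G51060), the NADPH oxidase of root hair growth, had a 476 bp peak at place 4746, 1866 bp from the nearer end of a 5263 bp gene. These peaks stood at 36.0% of the gene length from the nearer end in RBOHD and 35.5% in RHD2. End peaks were found at 2 of the 7 genes, neither of them a host.

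In hormone pathways, the cytokinin list had 7 hosts of 36, 19.4% (9.75 to 35%) against 4.74% by length. They included the cytokinin oxidase genes CKX2 (AT2G19500), CKX5 (AT1G75450) and CKX7 (AT5G21482), which break cytokinin down, with peaks of 426, 426 and 515 bp at 44.9, 32.7 and 26.1% of the gene length. The type-A response regulators ARR4 (AT1G10470) and ARR6 (AT5G62920), which dampen the response, had 646 and 551 bp peaks. IPT5 (AT5G19040), which makes cytokinin, had a 649 bp peak 268.5 bp from one end, and LOG2 (AT2G35990), which activates it, a 290 bp peak at place 6437.

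The auxin list as a whole was close to the background, with 5 hosts of 94, 5.32% (2.29 to 11.9%) against 4.32%. Beside IAA16 they included the PIN auxin efflux carrier genes PIN3 (AT1G70940), PIN4 (AT2G01420) and PIN7 (AT1G23080). The peak in PIN7, 455 bp at place 429 (chromosome 1, 8181147 to 8181601), was the earliest of these. Those in PIN3 (329 bp) and PIN4 (349 bp) stood at places 4185 and 4119. In PIN3 and PIN7 the midpoint was 35.0 and 34.2% of the gene length from the nearer end, and in PIN4 it was 9.96%.

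Of 9 BEL1-like homeodomain genes with a BLH symbol, 4 were hosts, 44.4% (18.9 to 73.3%) against 5.73%. They were BLH1 (AT2G35940) and BLH2 with 2 deep peaks each, BLH3 (AT1G75410) with 1 and BLH4 with 3. BLH1 had an 840 bp peak 215 bp from one end and a 265 bp peak 1619.5 bp from the nearer end. Of 67 WRKY transcription factor genes 8 were hosts, 11.9% (6.18 to 21.8%) against 3.96%, with peaks of 294 to 739 bp. The earliest among them was the 455 bp peak in WRKY11 (AT4G31550) at place 1399, 892.5 bp from the nearer end, and WRKY7 (AT4G24240) had 2 deep peaks and no end peak. Of the 67 WRKY genes, 41 had an end peak, 61.2%, against 22.8% of all protein-coding genes. WRKY genes made up 8 of the 9 hosts on the salicylic acid list of 80 genes, 11.25% against 4.29%. The ninth was DMR6 (AT5G24530), a salicylic acid hydroxylase gene, with a 764 bp peak 229 bp from one end.

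Other families gave the following counts. MAPKKK genes had 4 hosts of 13, 30.8% (12.7 to 57.6%) against 3.56%. They were MAPKKK6 (AT3G07980), MAPKKK7, MAPKKK13 (AT1G07150) and MAPKKK16 (AT4G26890), with peaks of 322 to 435 bp. In MAPKKK6, a 7758 bp gene, the peak was only 215.5 bp from one end, whereas in its close relative MAPKKK7 it was 3629 bp from the nearer end. The ACR genes, which encode proteins with ACT domain repeats, had 3 hosts of 11, 27.3% (9.75 to 56.6%) against 5.6%, namely ACR3 (AT1G76990), ACR7 (AT4G22780) and ACR11 (AT1G16880). SWEET sugar transporter genes had 3 of 15, 20% (7.05 to 45.2%) against 3.98%, and SWEET17 (AT4G15920), a vacuolar fructose transporter, had a 785 bp peak 1388.5 bp from the nearer end. CIPK kinase genes had 4 of 21, 19.0% (7.67 to 40.0%) against 4.76%, and CIPK1 (AT3G17510) had the widest of these peaks, 788 bp. Of 10 JAZ genes, which encode jasmonate repressors, 2 were hosts (20% against 3.92%), JAZ3 (AT3G17860) with a peak of 642 bp and JAZ4 (AT1G48500) with one of 625 bp. Of 10 HA genes, which encode plasma membrane proton pumps, 2 were hosts (20% against 6.23%), HA1 (AT2G18960) with 2 deep peaks and HA2 (AT4G30190) with 1. The symbols NAC, with 4 of 79, MYB, with 6 of 120, and CYP, with 13 of 229, were at 5.06, 5 and 5.68%, against 3.83, 3.48 and 4.14% by length. Relatives under other symbols are not in these counts. Such hosts were ATAF1, NAM (AT1G52880) and VND7 (AT1G71930) for NAC, RAX2 (AT2G36890) for MYB, and DWF4 and ROT3 (AT4G36380) for CYP. Several of these families were also rich in end peaks, against 22.8% of all protein-coding genes. The shares were 46.2% for MAPKKK, 72.7% for ACR, 61.9% for CIPK, 70% for JAZ and 40% for HA. They were 39.2% for NAC, 38.3% for MYB, 22.3% for CYP and 20% for SWEET genes.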

How the data were processed

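The authors deposited a single table of peaks with 3 columns and no header. Its values are other than counts or signal: start and end positions only, as the authors deposited them. Bowtie2 and MACS2 with TAIR10 are named in the submitters' processing notes. Their versions and thresholds, and whether IgG was the control, are not given in the sources used. Depth is unknown, so no counting error can be given. Starts were read as BED and are printed counted from 1.

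Gene ends, names and transcripts came from a RefSeq table of assembly TAIR10.1, with 27444 nuclear protein-coding genes. As a check of shared coordinates, midpoints of peaks under 1000 bp lay inside these genes in 26.4% of cases, against 62.0 and 62.1% after shifts of 5000 bp down and up. The table holds no sequence, so none is printed.

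Members and lists were chosen with earlier results of these data known. The words that define classes were corrected after matches were seen. Named genes are the 10 earliest and 10 widest member peaks, all hosts with 3 or more (13, ties kept), the 5 longest and shortest hosts, the 3 hosts with the widest peak in each class of 5 or more hosts, hosts on nitrogen, TGA, iron and hormone lists, and peaks next to each limit. Further hosts, of symbol families and of the chromatin, ammonium, potassium, sulfate and oxidase genes, were named after their values were seen; 1 host and some families are not reported here. Intervals are 95% Wilson intervals over peaks, genes or bases, which are not replicates. Code was tested on simulated data. Figures were drawn with matplotlib 3.10.9 and values computed with pandas 2.3.3 and scipy 1.17.1 in Python 3.11.15.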

Additional observations from a re-analysis of the deposited data

How the results depend on the processing

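Of 61 recomputed values under 11 alternatives, 40 stayed within the interval of the value given (for the number of peaks, within 1.5 times). With 100 bp in place of 200 bp from the gene ends, median host length was 2694.5 bp, median relative distance to the nearer end 20.9% and the share of hosts with an end peak 61.3%. That last share is raised by definition, since a peak 100 to 200 bp inside its host then counts as an end peak too. With 500 bp there were 632 peaks, median host length was 3119 bp and median relative distance 34.4%. The share of hosts with an end peak was then 51.9%. Under a width limit of 500 bp the share of transporters that were hosts was 6.0% and the median width 347 bp, and with no limit the width was 412.5 bp. Peaks lying whole inside the gene had a relative distance of 28.9% and a width of 384 bp. The first of 2 equal parts of the list gave 391 peaks, a host length of 2962 bp, 4.71% of transporters and 509 bp, and the second 576 peaks, 6.42% and 334 bp. Hosts of all kinds fell from 883 to 646 under the width limit of 500 bp, and to 376 and 546 in these parts. No matched share was computed for these settings, so the transporter shares cannot be set against the 5.07% given above. Within the 2 parts of the list 30.3 and 26.4% of hosts had an end peak, against 12.0 and 12.5% of other genes. Counting only end peaks under 1000 bp, added after the data were seen, gave 43.1% of hosts and 20.8% of other genes. The moves in host length and relative distance with the distance limit, in width with the width limits, and in the number of peaks and end peaks within parts of the list follow from what each setting selects. So do the moves in width and relative distance for peaks lying whole inside the gene. Keeping fewer peaks can only hold or lower the share of transporters, and keeping fewer end peaks the share of hosts with one. The cause of the other moves was not tested. No paired analysis was possible because there is 1 library per antibody and 1 peak list.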
